A study of Homo sapiens with 16 samples.

Results

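Keratins are the filament proteins that give epithelial cells their mechanical strength. The genes described here are 10 epithelial keratins: KRT8, KRT18, KRT19, KRT7, KRT10, KRT80, KRT5, KRT14, KRT15 and KRT17. They were found by matching the Ensembl gene IDs of the count tables to these symbols, which gave 10 of the 60676 gene rows. The cells were LNCaP, a human prostate adenocarcinoma line that came from a metastasis in a lymph node and responds to androgen. RB-p53 double knockout cells (DKO), made with CRISPR-Cas9, and unedited cells (WT) were each given 50 µM enzalutamide (EZ) or an equal volume of its solvent DMSO for 6 days. Enzalutamide is an antagonist of the androgen receptor. The 4 groups were DKO EZ, DKO DMSO, WT EZ and WT DMSO, with 4 libraries in each, and all were grown in RPMI-1640 medium with serum. The labels state neither whether the DKO line was 1 clone nor whether each replicate had a culture of its own. The p-values thus cover the spread between these libraries, which may be technical.

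Keratin filaments are built from pairs of an acidic type I and a basic type II keratin, and a keratin without a partner is usually degraded. KRT8 (type II) and KRT18 (type I) are the pair of simple epithelia and of the secretory luminal cells of the prostate, where KRT19 and KRT7 can join them. KRT5 (type II) with KRT14 and KRT15 (type I) mark the basal cells of stratified and glandular epithelia. KRT17 is a type I keratin of basal and injured epithelium, KRT10 is the type I keratin of differentiating epidermis, and KRT80 is a type II keratin found in many epithelia.

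Total counts ran from 11823438 to 47678648 per library. RB1, one of the targeted genes, had 9.94 to 13.4 CPM in DKO EZ, 9.04 to 11.7 CPM in DKO DMSO, 95.6 to 122 CPM in WT EZ and 101 to 128 CPM in WT DMSO. CPM here are read counts in the usual unit, relative to a library size scaled with TMM, the trimmed mean of M-values. All 9 prostate luminal markers, such as KLK3 and TMPRSS2, passed the filter on low counts. The defining basal factor TP63 had 12 counts over all 16 libraries, and the T cell gene CD3E had 0. In 6 libraries the structural RNA RN7SL1 was above 1500 CPM of unscaled library totals. These were replicates 1 and 2 of both DKO groups and replicate 1 of both WT groups. Among single genes, values within the high and the low set are given only for called keratins of the 10. The other genes named below were not looked at within these sets.

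KRT8 and KRT18 made up nearly all keratin RNA of the 10 genes. Together they held 90.3% to 95.6% of the counts of the 10 genes in the 16 libraries, and the 10 genes held 0.0551% to 0.0723% of all counts. Set per kilobase of the principal transcript, mean levels in DKO EZ were 192 CPM per kilobase for KRT8, 182 for KRT18, 16.9 for KRT10, 3.53 for KRT80 and 2.65 for KRT19. In DKO DMSO the levels per kilobase were 192 for KRT18, 169 for KRT8, 16.6 for KRT10, 2.86 for KRT19 and 1.49 for KRT80. In WT EZ they were 220 for KRT18, 192 for KRT8, 16.1 for KRT10, 1.25 for KRT19 and 0.818 for KRT80. Neighbours in these orders did not all differ beyond their spread: the libraries of KRT8 and KRT18 overlapped in these 3 groups, and so did those of KRT80 and KRT19. In WT DMSO the levels per kilobase were 238 ± 36.7 for KRT18 and 154 ± 36.8 for KRT8 (SD, n = 4), and here the libraries of KRT18, at 207 to 282, lay above those of KRT8, at 120 to 186. KRT10 followed in WT DMSO at 18.6, with KRT80 at 0.836 and KRT19 at 0.647, whose libraries overlapped. The order of KRT8 and KRT18 rests on the length used: per kilobase of all annotated exons, KRT18 was above KRT8 in every group, at 80.4 against 49.0 in DKO EZ and 105 against 39.3 in WT DMSO. KRT10 lay below KRT8 and KRT18 and above every other member in each group on both lengths.

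The other 5 genes were scarce. A gene was called below detection in a group where its 4 libraries held at most 3 counts in all, and near the limit where its mean was under 0.5 CPM. KRT17 was below detection in all 4 groups. KRT7 and KRT15 were below detection in both WT groups, and KRT5 was below detection in DKO EZ and WT EZ. KRT7 in both DKO groups, KRT15 in DKO EZ and KRT5 in DKO DMSO and WT DMSO were near the limit. KRT14 was near the limit in DKO EZ, DKO DMSO and WT DMSO and above it in WT EZ.

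**Figure D1:**
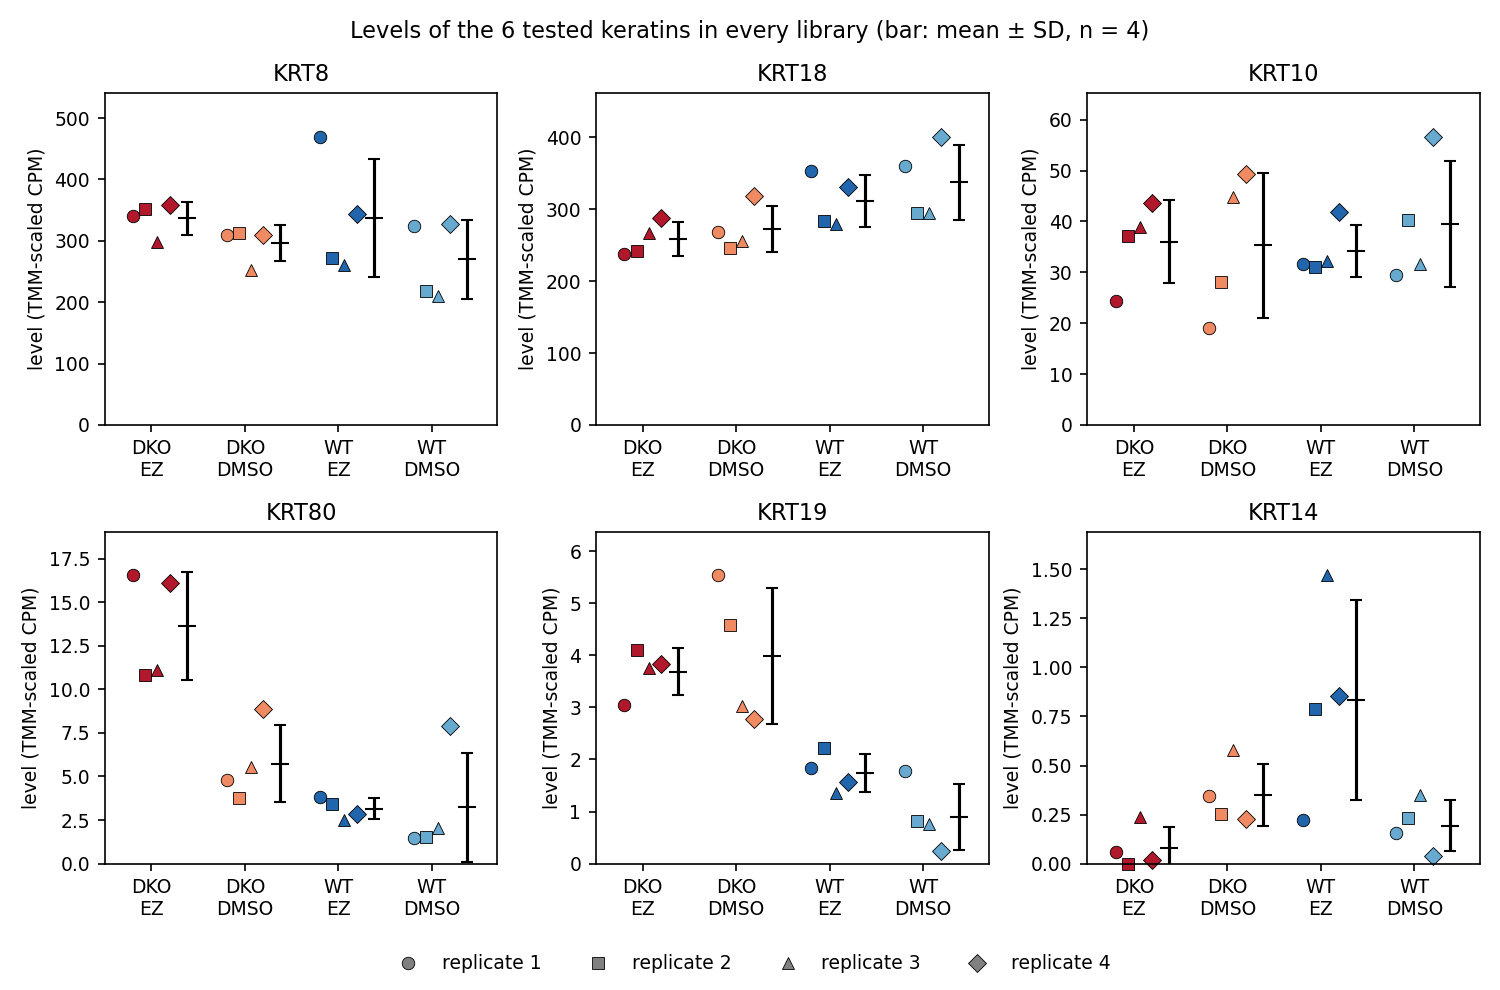
Levels of the 6 keratins that passed the filter, in TMM-scaled CPM on linear axes that start at 0, for the 16 libraries by group, with marker shapes for replicate numbers and bars for mean ± SD (n = 4). KRT80 was highest in DKO EZ, at 10.8 to 16.5 CPM, KRT19 was higher in DKO than in WT libraries under either treatment, the groups of KRT8 and KRT10 overlapped, and those of KRT18 overlapped except that DKO EZ lay below WT DMSO.

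The test across all genes, edgeR's quasi-likelihood test with Benjamini-Hochberg adjustment over 21810 genes, covered 6 of the 10 keratins: KRT8, KRT18, KRT19, KRT10, KRT80 and KRT14. KRT7, KRT5, KRT15 and KRT17 did not pass the filter. In DKO against WT cells in DMSO, 1 of the 6 passed the threshold of 0.05, KRT19 with a higher level, where 8.91% of all genes tested were called higher, 9.7% lower and 18.6% in either direction. Without adjustment, p was under 0.05 for 2 of the 6 there, KRT19 and KRT18, and for 30.8% of all genes. In DKO against WT cells in EZ, KRT80 was called higher and KRT14 lower, against 9.29% and 11.4% of all genes tested and 20.7% in either direction. Here p was under 0.05 before adjustment for 4 of the 6 and for 32.2% of all genes. In EZ against DMSO, 0 of the 6 were called in DKO cells, where 1.48% of all genes were called, 1.03% higher and 0.445% lower. In WT cells 0 of the 6 were called, against 3.32% of all genes, 2.25% higher and 1.07% lower. Without adjustment, edgeR's p was under 0.05 for 2 of the 6 in DKO cells and for 2 in WT cells, against 13.3% and 15.6% of all genes, and DESeq2 called 0 of them in both, giving KRT14 no adjusted p. The median log2 fold change of the 6 was 0.49 for DKO against WT in DMSO and 0.04 in EZ, beside -0.06 and -0.01 over all genes tested. The interaction, in which the change with EZ in WT cells is taken from that in DKO cells, was called for 0 of the 6 and for 0% of all genes, with 1 of the 6 at an unadjusted p under 0.05 against 2.97% of all genes. These edgeR counts come from a fit without replicate blocks. With the replicate number nested in genotype, KRT14 and KRT8 were called with EZ in WT cells, and 0 of the 6 in DKO cells. Of the 21810 genes, that fit called 1691 with EZ in DKO cells, 2641 in WT cells and 39 for the interaction.

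**Figure D2:**
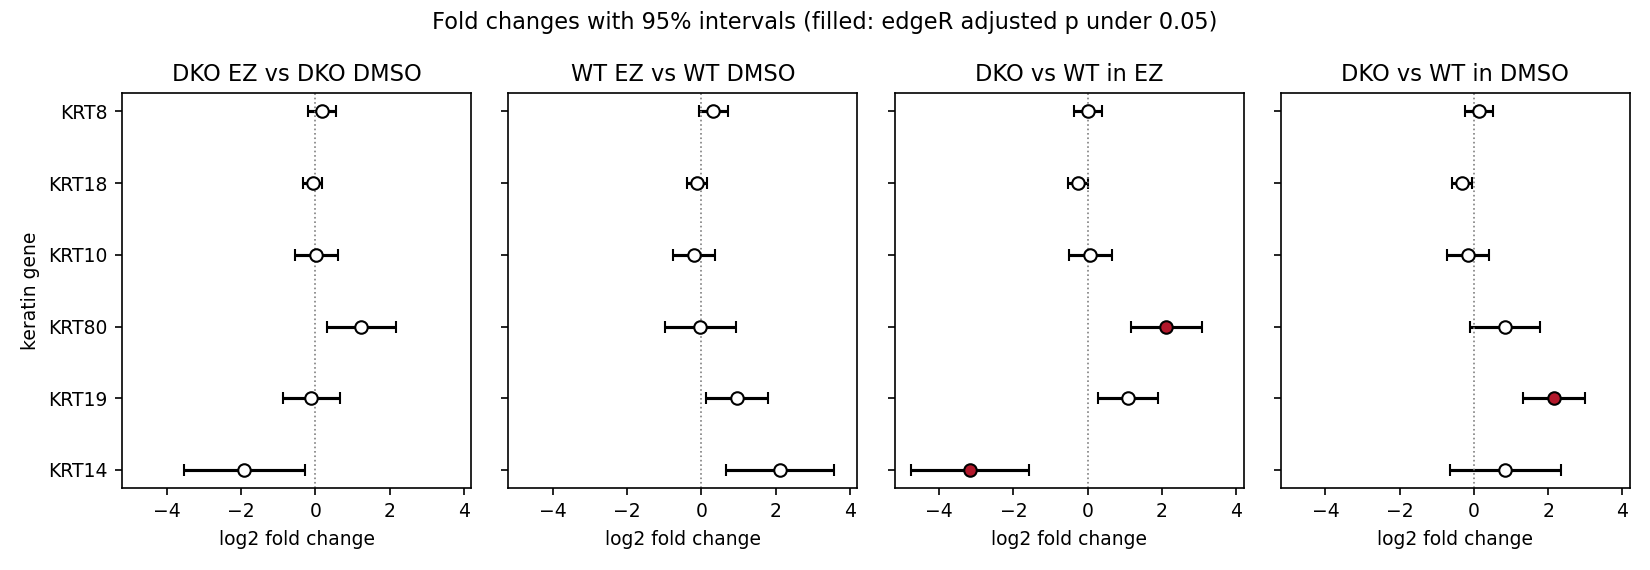
Log2 fold changes (points) with 95% intervals (bars) of the 6 tested keratins in 4 comparisons, with the first-named group over the second. Filled points passed an edgeR adjusted p of 0.05 in the fit without replicate blocks. These were KRT80 and KRT14 for DKO against WT in EZ and KRT19 for DKO against WT in DMSO.

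KRT8 did not pass the test in any comparison. It had 340, 351, 298 and 358 CPM in DKO EZ, 310, 313, 253 and 310 CPM in DKO DMSO, 470, 271, 261 and 344 CPM in WT EZ, and 325, 218, 211 and 327 CPM in WT DMSO, for replicates 1 to 4. All groups overlapped, and within each genotype the EZ library was above the DMSO library of the same number in 4 of 4 pairs. The share of all genes with 4 of 4 pairs in the same direction is not given here. Such pair counts, here and below, are descriptions only. DKO cells differed from WT cells by a log2 fold change of 0.13 ± 0.18 in DMSO (SE, 95% interval -0.25 to 0.52) and of 0.00 in EZ (interval -0.38 to 0.39). EZ differed from DMSO by 0.18 ± 0.18 in DKO cells (edgeR adjusted p = 0.764) and by 0.32 ± 0.18 in WT cells (edgeR adjusted p = 0.440). With the replicate number as a block nested in genotype, the DKO difference was 0.19 and did not pass (edgeR adjusted p = 0.195). In the same fit the WT difference was 0.31 and passed (edgeR adjusted p = 0.0310). With replicate 1 of both EZ groups left out it was 0.13.

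KRT18, the type I partner of KRT8, had 238, 242, 267 and 288 CPM in DKO EZ, 268, 247, 256 and 319 CPM in DKO DMSO, 354, 283, 280 and 330 CPM in WT EZ, and 360, 295, 294 and 401 CPM in WT DMSO. The DKO values were mostly the lower ones, but DKO and WT libraries of the same treatment overlapped, and across treatments all 4 DKO EZ libraries lay below all 4 WT DMSO libraries. DKO against WT gave log2 fold changes of -0.31 ± 0.13 in DMSO (edgeR adjusted p = 0.105) and -0.27 ± 0.13 in EZ (edgeR adjusted p = 0.154), with intervals of -0.58 to -0.04 and -0.54 to -0.00085. EZ against DMSO gave -0.07 ± 0.13 in DKO cells (edgeR adjusted p = 0.893) and -0.11 ± 0.13 in WT cells (edgeR adjusted p = 0.741), with intervals of -0.34 to 0.19 and -0.38 to 0.15.

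Since KRT8 and KRT18 assemble as partners, their counts were also set against each other within each library, a ratio that does not depend on scaling. There were 1.31 ± 0.160 KRT8 counts per KRT18 count in DKO EZ, 1.10 ± 0.143 in DKO DMSO, 1.06 ± 0.181 in WT EZ and 0.793 ± 0.0848 in WT DMSO (SD, n = 4 each). The ratio ran from 1.11 to 1.45 in DKO EZ, from 0.971 to 1.27 in DKO DMSO, from 0.933 to 1.33 in WT EZ and from 0.716 to 0.903 in WT DMSO. All 4 libraries of each other group lay above all 4 of WT DMSO, while the other 3 groups overlapped among themselves. In same-numbered pairs, the ratio was higher in EZ than in DMSO in 4 of 4 pairs of DKO libraries and in 4 of 4 pairs of WT libraries. The ratio also moved with RN7SL1, whose high set holds 2 of the 4 libraries in each DKO group and 1 of 4 in each WT group. In the high set it was 1.43 and 1.45 in DKO EZ, 1.16 and 1.27 in DKO DMSO, 1.33 in WT EZ and 0.903 in WT DMSO. In the low set it was 1.11 and 1.25 in DKO EZ, 0.971 and 0.987 in DKO DMSO, 0.933 to 1.04 in WT EZ and 0.716 to 0.816 in WT DMSO. Within every group the high libraries lay above the low ones, and within each set the DKO libraries lay above the WT libraries of the same treatment. The part of the RN7SL1 set in the ratio was not tested. This ratio was looked at after the levels were known and is given as a description without a test.

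**Figure D3:**
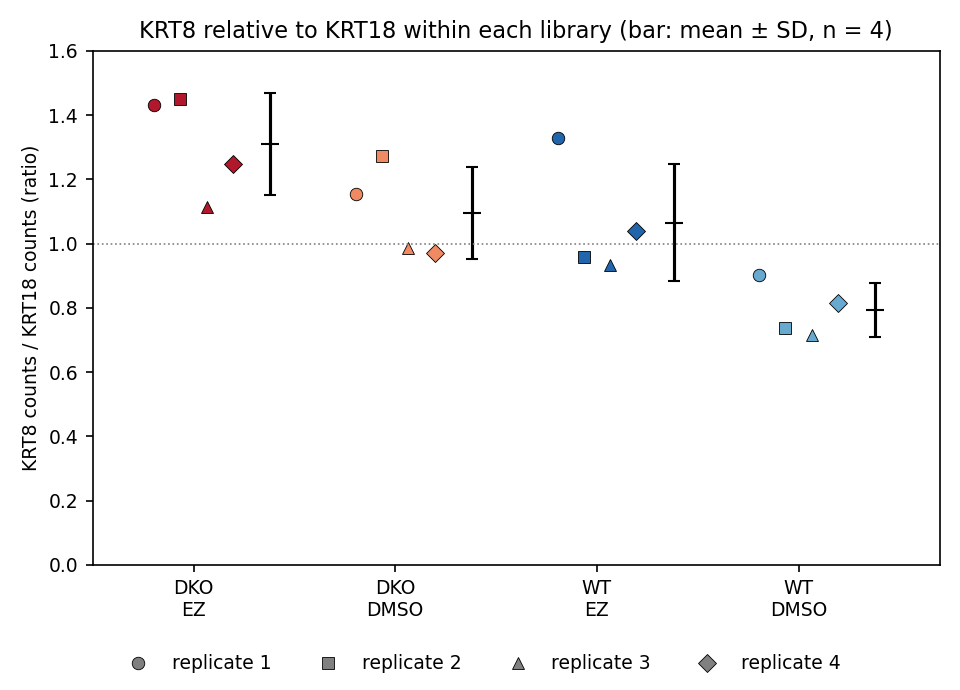
Counts of KRT8 divided by counts of KRT18 in each library, by group, with marker shapes for replicate numbers and bars for mean ± SD (n = 4). The 4 WT DMSO libraries, at 0.716 to 0.903, lie below the libraries of the other 3 groups.

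Both genes have many processed copies in the genome, and reads that match several places could be divided between them, so the copies were counted too. Rows named as KRT8 pseudogenes summed to 4.15% to 11.8% of the KRT8 counts per library, and rows named as KRT18 pseudogenes to 1.55% to 5.67% of the KRT18 counts. The largest were KRT8P12, with 3990 counts over the 16 libraries, on the strand opposite to the gene KPNA4, and KRT8P46, with 3527 counts, inside MANBA on its strand. Over the aligned coding bases KRT8P46 was 91.7% identical to KRT8 and KRT8P12 was 90.6% identical.

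KRT8P46 was higher in DKO EZ than in WT EZ, at 11.7 ± 1.54 CPM against 4.79 ± 1.35 CPM (SD, n = 4), with a log2 fold change of 1.29 ± 0.27 (edgeR adjusted p = 0.00207), while KRT8 itself was not called. Whether these reads came from the copy, from KRT8 or from the host gene MANBA was not tested. KRT8 and KRT18 also lie side by side on chromosome 12 (KRT8 at 52897187-52949954 on the minus strand, KRT18 at 52948871-52952901 on the plus strand, GENCODE v29 on GRCh38). Their annotated exons share 525 bases on opposite strands, and since the strand setting of the counting is not stated in the labels, reads from this stretch cannot be assigned to either gene.

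KRT19, a small type I keratin that luminal and progenitor cells of many glands carry, was higher in DKO cells. It had 3.05, 4.10, 3.75 and 3.84 CPM in DKO EZ, 5.53, 4.59, 3.03 and 2.77 CPM in DKO DMSO, 1.83, 2.22, 1.35 and 1.56 CPM in WT EZ, and 1.78, 0.819, 0.754 and 0.249 CPM in WT DMSO. Every DKO library was above every WT library of the same treatment. In DMSO it rose 4.45-fold in DKO against WT cells, a log2 fold change of 2.15 ± 0.40 (SE, edgeR adjusted p = 9.66e-04). The difference was 1.49 within the high RN7SL1 set (2 libraries against 1) and 2.38 within the low set (2 against 3). Rows named as KRT19 pseudogenes held 1, 9, 8 and 2 counts in WT DMSO, replicates 1 to 4. That was 2.94%, 23.1%, 61.5% and 33.3% of the KRT19 counts there. In DKO DMSO they held 3, 3, 6 and 4 counts, or 2.68% to 7.14%. Whether reads were divided between KRT19 and these copies was not tested.

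In EZ the KRT19 difference was 1.09 ± 0.38 (edgeR adjusted p = 0.0511), which missed the threshold although the libraries did not overlap. It passed with the 2 EZ groups alone (edgeR adjusted p = 0.00899) and with DESeq2 (adjusted p = 0.0160). With single libraries left out in turn, it passed in 5 of 16 fits and the edgeR adjusted p ran from 0.0155 to 0.122. The 5 were those without DKO DMSO replicate 1, 3 or 4 or WT DMSO replicate 1 or 4, and it did not pass without any one of the 8 EZ libraries (edgeR adjusted p = 0.0583 to 0.122). The drug itself gave -0.10 ± 0.37 in DKO cells (edgeR adjusted p = 0.953) and 0.96 ± 0.40 in WT cells (edgeR adjusted p = 0.236), where EZ was above DMSO in 4 of 4 same-numbered pairs. Without WT DMSO replicate 1, the highest of its group, the WT difference was 1.52 and passed (edgeR adjusted p = 0.0346). With the replicate number nested in genotype it was 1.12 and did not pass (edgeR adjusted p = 0.0624). The interaction was -1.07 ± 0.54 (edgeR adjusted p = 1.00), so that a difference between the genotypes in their change with EZ was not shown.

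KRT80, a type II keratin of broad epithelial expression, was highest in drug-treated DKO cells. It had 16.5, 10.8, 11.1 and 16.1 CPM in DKO EZ, 4.79, 3.78, 5.52 and 8.87 CPM in DKO DMSO, 3.82, 3.42, 2.51 and 2.87 CPM in WT EZ, and 1.46, 1.51, 2.03 and 7.89 CPM in WT DMSO. All DKO EZ libraries lay above all others, and WT DMSO replicate 4 stood apart from the rest of its group. In EZ KRT80 rose 4.33-fold in DKO against WT cells (log2 fold change 2.12 ± 0.45, edgeR adjusted p = 0.00316). The difference was 1.80 within the high RN7SL1 set and 2.19 within the low set.

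In DMSO the KRT80 difference between DKO and WT cells was 0.84 ± 0.44 (edgeR adjusted p = 0.217), and without WT DMSO replicate 4 it was 1.85 and passed (edgeR adjusted p = 2.33e-04). In DKO cells, EZ gave 1.24 ± 0.44 against DMSO (edgeR adjusted p = 0.197), with libraries that did not overlap and EZ above DMSO in 4 of 4 pairs. That difference passed with the DKO libraries alone (1.23, edgeR adjusted p = 0.0471). It also passed with the replicate number as a block shared by DKO and WT cells (1.30, edgeR adjusted p = 0.0481), though their numbers were not taken as pairs. Of 16 fits without single libraries it passed in 1, without WT DMSO replicate 4 (1.23, edgeR adjusted p = 0.0135). It did not pass with the number nested in genotype (1.27, edgeR adjusted p = 0.0968) or with DESeq2 (adjusted p = 0.0862). Nor did it pass with the RN7SL1 term (edgeR adjusted p = 0.148), with the other scalings or without a filter. In WT cells, EZ gave -0.04 ± 0.45 (edgeR adjusted p = 0.982), and 0.96 without WT DMSO replicate 4 (edgeR adjusted p = 0.0641). The interaction was 1.28 ± 0.63 (edgeR adjusted p = 1.00), and 0.28 without WT DMSO replicate 4, within a range of 0.28 to 1.56 without single libraries.

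KRT10, which pairs with KRT1 in the epidermis, was detected throughout and did not pass the test in any comparison. It had 24.4, 37.2, 38.8 and 43.6 CPM in DKO EZ, 19.0, 28.0, 44.8 and 49.3 CPM in DKO DMSO, 31.6, 31.0, 32.2 and 41.9 CPM in WT EZ, and 29.5, 40.2, 31.7 and 56.6 CPM in WT DMSO. The 4 groups overlapped. The pairwise log2 fold changes were between -0.21 and 0.08, with SE of 0.27, and the interval of DKO against WT ran from -0.73 to 0.41 in DMSO and from -0.50 to 0.65 in EZ. Its exons share 56 bases with TMEM99, a gene on the opposite strand with 11208 counts against 16555 for KRT10, so KRT10 counts may include reads of that gene.

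KRT14, the type I basal keratin, was scarce in every group and lower in DKO EZ than in WT EZ. The libraries of DKO EZ held 1, 0, 8 and 1 counts, those of DKO DMSO 7, 6, 16 and 10, those of WT EZ 4, 17, 38 and 28, and those of WT DMSO 3, 11, 6 and 1. In CPM this was 0.0792 ± 0.107 in DKO EZ, 0.351 ± 0.159 in DKO DMSO, 0.833 ± 0.510 in WT EZ and 0.194 ± 0.129 in WT DMSO (SD, n = 4). Under EZ, KRT14 fell to 0.111 of its WT level in DKO cells, a log2 fold change of -3.17 ± 0.75 (SE, edgeR adjusted p = 0.00596), but the groups overlapped through DKO EZ replicate 3 (0.236 CPM) and WT EZ replicate 1 (0.222 CPM). Without DKO EZ replicate 3, which held 8 of the 10 counts of its group, the difference was -4.70, and it ran from -4.70 to -2.62 and passed in each of the 16 fits without 1 library. The difference was -2.07 within the high RN7SL1 set and -3.52 within the low set. KRT14 passed the filter on low counts through the WT EZ libraries with 17, 38 and 28 counts and the DKO DMSO library with 16. It was thus tested mainly because of the group where it was high, and that selection favoured this call.

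In DMSO the KRT14 levels of DKO and WT cells overlapped, with a log2 fold change of 0.84 ± 0.71 (edgeR adjusted p = 0.464). The drug gave opposite signs in the 2 genotypes: EZ was below DMSO in 4 of 4 pairs of DKO libraries, at -1.91 ± 0.78 (edgeR adjusted p = 0.275, and -3.53 with adjusted p = 0.100 without DKO EZ replicate 3), and above it in 4 of 4 pairs of WT libraries, at 2.11 ± 0.69 (edgeR adjusted p = 0.112). With the replicate number as a block the WT value was 2.07 and passed (edgeR adjusted p = 0.0236), as it did with the block within genotype (2.07, edgeR adjusted p = 0.0169). The DKO value with the block within genotype was -2.10 and did not pass (edgeR adjusted p = 0.0549). The test of the difference itself gave -4.02 ± 1.04, with an unadjusted p = 0.00122 and an edgeR adjusted p of 1.00 over all genes, so it was not called. KRT14 is 90.5% identical to KRT16 and 89.5% identical to KRT17 over the aligned coding bases, and KRT17 had 4 counts in all.

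Of the 5 basal markers, TP63, KRT5, KRT14, KRT15 and NGFR, only KRT14 and NGFR were tested. NGFR, the nerve growth factor receptor that basal cells of the prostate carry, averaged 0.766 ± 0.229 CPM in DKO EZ, 0.902 ± 0.322 in DKO DMSO, 0.442 ± 0.218 in WT EZ and 0.267 ± 0.131 in WT DMSO (SD, n = 4). It was higher in DKO than in WT cells in DMSO, without overlap (1.83 ± 0.49, edgeR adjusted p = 0.0144), where KRT14 was not called. In EZ, where KRT14 was lower, the NGFR difference was 0.73 ± 0.47 and did not pass (edgeR adjusted p = 0.316).

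KRT15, a type I keratin of basal and stem cells in stratified epithelium, was seen mainly in 2 libraries. DKO EZ held 3, 2, 4 and 36 counts, DKO DMSO 3, 1, 2 and 263, WT EZ 1, 0, 0 and 0, and WT DMSO 0, 1, 0 and 2. Replicate 4 of both DKO groups, at 0.755 CPM in EZ and 5.98 CPM in DMSO, stood apart from the other DKO libraries, which had 0.0425 to 0.180 CPM. The level therefore rests on the library with that number in each DKO group, and the gene did not pass the filter and was not tested. In EZ all DKO libraries were above all WT libraries, at counts of 2 to 4 outside replicate 4.

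KRT7, a type II keratin of ductal and glandular epithelia, had 2, 0, 0 and 3 counts in DKO EZ, 0, 2, 0 and 10 counts in DKO DMSO, and 0 counts in all 8 WT libraries. The detection cut of 3 counts equals 0.0275 CPM of unscaled totals over the WT EZ group and 0.0264 CPM over the WT DMSO group. For counting error only, the 95% interval of 0 counts in a group reaches 3.69 counts. The DKO means were 0.0457 CPM in EZ and 0.0781 CPM in DMSO. Of the 17 KRT7 reads, 10 came from DKO DMSO replicate 4, the library that also held most KRT15 reads. KRT5, the type II partner of KRT14, had 2 counts in DKO EZ, 5 in DKO DMSO, 0 in WT EZ and 4 in WT DMSO, at most 2 in any library. KRT17 had 1 count in DKO EZ, 3 in DKO DMSO and 0 in both WT groups. For KRT5 and KRT17 no difference between groups was detectable at this depth.

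**Figure D4:**
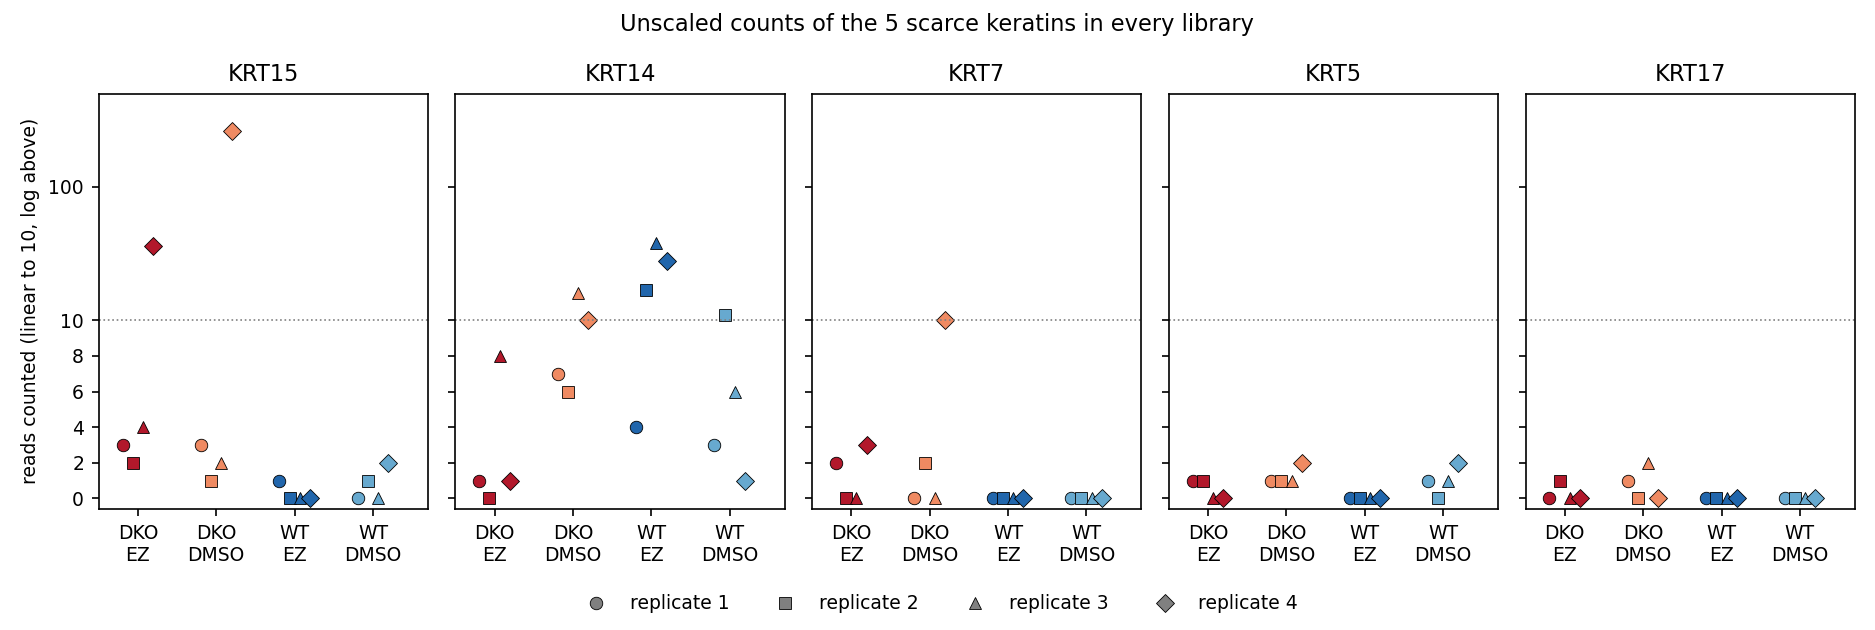
Unscaled read counts of the 5 scarce keratins in each library, by group, on an axis that is linear up to 10 counts and logarithmic above, with marker shapes for replicate numbers. KRT15 reached 263 and 36 counts in replicate 4 of DKO DMSO and DKO EZ, KRT14 reached 38 counts in WT EZ, and KRT5 and KRT17 stayed at 2 counts or fewer per library.

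Some markers on the lists of fibroblasts and of luminal prostate cells also differed between the genotypes. Summed over 5 fibroblast markers, the level was 38.1 to 52.1 CPM in DKO EZ, 27.1 to 46.8 in DKO DMSO, 15.3 to 21.4 in WT EZ and 16.8 to 22.3 in WT DMSO. Of these markers, 3 were tested and 2, COL1A1 and LUM, were higher in DKO cells under both treatments, beside 9.29% of all genes tested in EZ and 8.91% in DMSO, while COL1A2 and DCN had 6 counts each over all 16 libraries. The summed level of the 9 luminal markers was 2022 to 2918 CPM in DKO EZ, 1849 to 2987 in DKO DMSO, 3726 to 4943 in WT EZ and 2809 to 4689 in WT DMSO. Of these, 6 of 9 were lower in DKO cells in EZ and 5 of 9 in DMSO, beside 11.4% and 9.7% of all genes tested, among them KLK3 at -4.07 ± 0.69 in EZ and -3.48 ± 0.64 in DMSO (edgeR adjusted p = 8.02e-04 and 0.00159). The 5 leukocyte markers summed to at most 0.569 CPM. Of 4 endothelial markers only VWF was tested, and it was lower with EZ in WT cells (-1.29 ± 0.30, edgeR adjusted p = 0.0265). VWF was not called for DKO against WT cells under either treatment. The part of these markers in the keratin differences was not tested, and in bulk RNA fewer cells of a type and less RNA per cell cannot be told apart.

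Of the 45 other protein-coding keratin genes in the files, 22 had at most 3 counts over all libraries, 9 of them had 0, and only KRT20, KRT75 and KRT6C were tested. KRT20, a type I keratin of intestinal and urothelial cells, was higher in DKO cells in both treatments. It averaged 1.49 ± 0.650 CPM in DKO EZ and 0.464 ± 0.219 CPM in WT EZ (SD, n = 4), a log2 fold change of 1.70 ± 0.46 (edgeR adjusted p = 0.0130), with overlapping libraries. In DMSO it averaged 0.917 ± 0.223 CPM in DKO and 0.328 ± 0.202 CPM in WT cells, 2.83-fold and without overlap (edgeR adjusted p = 0.0357). KRT75, a hair follicle keratin of type II, had 3.31 to 11.7 CPM in DKO EZ and 0.502 to 2.60 CPM in WT EZ, which did not overlap but missed the threshold (2.73 ± 1.04, edgeR adjusted p = 0.0819). KRT6C did not pass in any comparison.

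The proteins that tie keratin filaments to desmosomes and hemidesmosomes changed in both directions between the genotypes. Of 17 tested genes of a list of 18 linkers, 6 were higher and 3 lower in DKO than in WT cells in EZ, and 5 were higher and 2 lower in DMSO. Of all genes tested, 9.29% were higher and 11.4% lower in EZ, and 8.91% were higher and 9.7% lower in DMSO. The median log2 fold change of the list was 0.35 in EZ and 0.09 in DMSO, beside -0.01 and -0.06 over all genes tested. EPPK1 (epiplakin, which binds keratin bundles) fell by 2.30 ± 0.24 on the log2 scale in EZ and by 2.45 ± 0.24 in DMSO (edgeR adjusted p = 3.57e-06 and 2.05e-06). PKP3 (plakophilin 3, of the desmosomal plaque) fell by 0.87 ± 0.10 and by 0.88 ± 0.10. DSC3, a desmosomal cadherin of basal layers, rose 6.50-fold in EZ and 3.16-fold in DMSO (edgeR adjusted p = 4.63e-05 and 0.00226). PPL (periplakin) rose by 1.71 ± 0.16 in EZ, and ITGB4, the integrin of hemidesmosomes, rose by 1.83 ± 0.19 in DMSO. Their means were also higher in DKO cells under the other treatment. PPL averaged 30.7 CPM in DKO DMSO and 11.7 CPM in WT DMSO, and ITGB4 18.9 CPM in DKO EZ and 7.40 CPM in WT EZ. With the drug, 0 of 17 linkers were called in DKO cells and 2 were lower in WT cells, where 1.07% of all genes were lower, among them the desmosomal cadherin DSC2 (-0.44 ± 0.11, edgeR adjusted p = 0.0389).

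Of 7 proteins that bind keratin filaments or their regulators, all tested, 1 was higher and 1 lower in DKO cells under each treatment, beside 20.7% of all genes called in either direction in EZ and 18.6% in DMSO. FAM83H, which recruits casein kinase to keratin filaments, had 116 ± 29.6 CPM in DKO EZ and 192 ± 27.6 CPM in WT EZ, and it fell by 0.72 ± 0.18 on the log2 scale in EZ and by 0.64 ± 0.18 in DMSO (edgeR adjusted p = 0.00740 and 0.0169). SFN (14-3-3 sigma), a partner of KRT17 and KRT18, rose by 1.57 ± 0.35 in EZ from a low level, at 1.00 ± 0.139 CPM in DKO EZ and 0.326 ± 0.132 CPM in WT EZ.

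Among 15 transcription factors of epithelial identity, 13 were tested. In DKO against WT cells, 2 were higher and 1 lower under each treatment, a share near the 20.7% of all genes called in EZ and the 18.6% called in DMSO. With the drug 1 was higher and 1 lower in each genotype, beside 1.48% of all genes called in DKO cells and 3.32% in WT cells. EHF, an ETS factor of epithelia, was the lower one in all 4 comparisons. It had 84.3 ± 9.13 CPM in DKO EZ, 190 ± 25.9 in DKO DMSO, 424 ± 52.6 in WT EZ and 719 ± 49.4 in WT DMSO (SD, n = 4), with log2 fold changes of -1.17 ± 0.12 for EZ in DKO cells and -0.76 ± 0.12 for EZ in WT cells (edgeR adjusted p = 5.98e-04 and 0.00224). GRHL2, which maintains epithelial junction genes, rose with EZ by 0.59 ± 0.11 in DKO cells and by 0.63 ± 0.11 in WT cells (edgeR adjusted p = 0.0110 and 0.00344). KLF4, a factor of epithelial differentiation, rose in DKO against WT cells by 1.25 ± 0.35 in EZ and by 1.43 ± 0.35 in DMSO. OVOL1 rose by 1.18 ± 0.21 in DMSO and TFAP2A by 0.73 ± 0.21 in EZ (edgeR adjusted p = 7.38e-04 and 0.0205).

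Among intermediate filament genes outside the keratins, 9 of a list of 13 were tested. In DKO against WT cells, 4 of the 9 were higher in EZ and 5 in DMSO, beside 9.29% and 8.91% of all genes tested, and 0 were lower. The median log2 fold change of the list was 1.39 in EZ and 1.40 in DMSO. VIM (vimentin, the filament of mesenchymal cells) had 185 ± 53.6 CPM in DKO EZ, 141 ± 32.7 in DKO DMSO, 30.5 ± 11.5 in WT EZ and 19.5 ± 6.98 in WT DMSO (SD, n = 4), a rise in DKO cells of 2.60 ± 0.30 in EZ and 2.85 ± 0.30 in DMSO (edgeR adjusted p = 1.41e-05 and 6.15e-06). NES (nestin, a filament of progenitor cells) rose by 1.93 ± 0.44 in EZ and by 3.49 ± 0.47 in DMSO. SYNM (synemin, a linker of vimentin-type filaments) rose with EZ in DKO cells by 0.79 ± 0.18 (edgeR adjusted p = 0.0355).

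For each keratin above 1 CPM, the 3 protein-coding genes with the most similar profile were found by the root mean square difference of mean-centred log2 CPM over the 16 libraries, among 12684 genes. KRT18 had the smallest distances, to CSNK1A1 (0.0762), UBQLN1 (0.0774) and CALCOCO2 (0.0797). CSNK1A1, a casein kinase, is also on the list of keratin-binding proteins above, and a link to KRT18 was not tested. The nearest to KRT8 were HECTD3 (0.101), SDHB and FAM50A, and the nearest to KRT10 were SLC46A1 (0.167), LYSET and GSKIP. KRT80 was most like CACNA1C (0.277), HSPB8 and NANOS1, and KRT19 was most like ZNF93 (0.320), NEURL1B and MCM6. KRT8 was not among the genes nearest to KRT18, nor KRT18 among those nearest to KRT8. These distances are descriptions, and they share the genotype and treatment differences of all 16 libraries. They are not scaled by how much a gene varies, and genes with little spread get small distances. Their sizes therefore do not rank the keratins by likeness to other genes.

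The members lie in both keratin clusters of the genome. KRT80 (52168996-52192000), KRT7 (52232520-52252186) and KRT5 (52514575-52520687) stand with KRT8 on chromosome 12, and KRT18 is the only type I member there. KRT10 (40818117-40822595), KRT15 (41513743-41522529), KRT19 (41523617-41528308), KRT14 (41582279-41586921) and KRT17 (41619441-41624842) are on chromosome 17. KRT15 and KRT19 lie next to each other among the members, yet KRT19 had counts in all 16 libraries while KRT15 had 4 or fewer in 14 of them.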

How the data were processed

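Total RNA of the 16 libraries was sequenced after ribosomal RNA reduction, per the labels' protocols. The deposited tables hold the authors' unnormalized read counts, 1 row per Ensembl ID. STAR 2.7.3a and GRCh38 are named in the submitters' processing notes, while the tool, strand setting, annotation and filters of the counting are not stated. Symbols came from the gene table (60357 of 60676 IDs), and coordinates, transcript lengths and identities of copies from GENCODE v29 on GRCh38.

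Counts were tested with edgeR 4.0.16 in R 4.3.3, using filterByExpr (minimum count 10, minimum total 15, leaving 21810 genes), TMM scaling, 1 mean per group over all 16 libraries, the robust quasi-likelihood test and Benjamini-Hochberg adjustment at 0.05. The biological coefficient of variation was 28.1%. Values are log2 fold changes ± SE or mean CPM ± SD, and counting limits cover counting error only. Replicates of a group differed beyond sampling noise (chi-square per degree of freedom 5.37 to 104) and were kept apart. On simulated counts for DKO against WT in DMSO (21137 genes), 8%, 68%, 84% and 90% of genes changed by 0.5, 1, 1.5 and 2 on the log2 scale were recovered, with 5 false calls. The changed genes had a mean of at least 1 CPM, so these rates do not cover KRT14. Counts were drawn independently, without RN7SL1 sets or replicate pairing, both of which the real libraries have.

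Replicate numbers were checked for pairing: same-numbered EZ and DMSO libraries deviated together in each genotype (r 0.403 to 0.664 in DKO, 0.326 to 0.625 in WT), so the numbers pair these libraries, from the data and not from the labels. The edgeR fit described above held no block for these numbers, so its results for EZ against DMSO do not use this pairing. For the block within genotype, calls are given for the 6 tested keratins and values only for some of them. For single genes outside the keratins, no results of that fit are given.

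The keratins and the gene lists were chosen with earlier results of these data known. From each list, up to 2 highest and 2 lowest changes past the threshold with at least 1 CPM are named. Alternatives were other scalings, no filter, DESeq2 1.42.0, replicate blocks, an RN7SL1 term, fewer groups and leaving out libraries. Some items are not reported here.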

Additional observations from a re-analysis of the deposited data

Results flagged for a closer look

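Of 30 sets of 4 libraries, each 1 keratin in 1 group, 5 had a library far from the other 3. By chance alone about 1 in 20 such sets is expected to have one. KRT8 in DKO DMSO was lowest in replicate 3, at 253 CPM, with the next library at 310 CPM. KRT10 in WT EZ was highest in replicate 4, at 41.9 CPM, with the next at 32.2 CPM. KRT80 in WT DMSO was highest in replicate 4, at 7.89 CPM, with the next at 2.03 CPM. For DKO against WT in DMSO, KRT80 was not called with this library and was called without it. KRT15 was highest in replicate 4 of both DKO groups, at 0.755 CPM in EZ and 5.98 CPM in DMSO, with the next libraries at 0.180 and 0.148 CPM.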

How the results depend on the processing

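The calls of KRT19 for DKO against WT in DMSO, and of KRT80 and KRT14 for DKO against WT in EZ, held in every alternative that could be fitted. KRT14 could not be tested with the 2 groups alone, since it did not pass that filter. The number of keratins called was 1 with the replicate block and 1 with the 2 groups alone for DKO EZ against DKO DMSO (KRT80). It was 1 with the replicate block (KRT14) and 2 with the block within genotype (KRT14 and KRT8) for WT EZ against WT DMSO. Same-numbered DKO and WT libraries correlated for replicates 1 to 4 at 0.287, -0.0668, 0.322 and 0.674 in DMSO and at 0.231, -0.0524, 0.229 and 0.523 in EZ, and not every number matched best with its own. As replicate 2 did not correlate, the numbers were not taken as pairs. The replicate block gave 2 in DMSO (KRT18 and KRT19) and 4 in EZ (KRT14, KRT18, KRT19 and KRT80), with KRT18 at -0.30 and -0.26 (edgeR adjusted p = 0.0235 and 0.0429). Without single libraries the counts ran from 0 to 1 with EZ in DKO cells, 0 to 1 with EZ in WT cells, 1 to 2 for DKO against WT in DMSO and 2 to 3 in EZ, and stayed at 0 for the interaction. The block changed no other keratin call. KRT19 for DKO against WT in EZ was also called with the other 3 scalings, without a filter, with DESeq2 and with the RN7SL1 term, which made 3 calls there. Over all genes, EZ gave 322 calls in DKO and 724 in WT cells, 1691 and 2641 with the block within genotype, 701 and 1135 with DESeq2 and 167 and 436 without a filter.

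Some uncalled values changed sign. The KRT80 change with EZ in WT cells was 0.21 with the replicate block, 0.27 with the block within genotype and 0.017 with the RN7SL1 term, and -0.28 to 0.96 without single libraries. With library totals, KRT10 was -0.0077 for EZ in DKO cells and 0.056 for DKO against WT in DMSO. KRT8 for DKO against WT in EZ was -0.045 with the RN7SL1 term, and its interaction was 0.043 without replicate 1 of both EZ groups. Without single libraries the ranges were -0.27 to 0.094 for KRT19 and -0.17 to 0.22 for KRT10 with EZ in DKO cells. They were -0.17 to 0.0066 for KRT18 and -0.33 to 0.048 for KRT10 with EZ in WT cells, -0.29 to 0.10 for KRT10 in DKO against WT in DMSO, and -0.11 to 0.21 for KRT8 in EZ. For the interaction they were -0.27 to 0.046 for KRT8, -0.089 to 0.11 for KRT18 and -0.022 to 0.44 for KRT10. The cause was not tested.

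Library totals moved the median of all genes in DKO against WT by 0.20 in DMSO and 0.24 in EZ, upper-quartile scaling by 0.11 in EZ, and KRT18 with library totals was at -0.09 and -0.02. Depth limits KRT7, KRT5, KRT15 and KRT17, which were not tested.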
